A study of Mus musculus with 8 samples.

Results

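Matrix metalloproteinases are secreted or membrane-bound zinc proteases that cut the proteins of the extracellular matrix, and the tissue inhibitors of metalloproteinases (Timps) bind them and block them. The genes described here are 7 metalloproteinases (Mmp2, Mmp3, Mmp9, Mmp12, Mmp13, Mmp14 and Mmp19) and 3 inhibitors (Timp1, Timp2 and Timp3), taken by name with every probe set annotated to one of them alone. These 10 genes stand among 12393 genes that the annotation names on the array, and 22 probe sets measure them. Of these, 20 probe sets passed the filter on dim values (at least 2 of 8 arrays at an intensity of 38.4 or more), and every one of the 10 genes kept at least 1 tested probe set. Intensities are given on a linear scale, either array by array or as a group mean ± SD (n = 2).

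RNA was measured on Affymetrix Mouse430A arrays in sorted CD45+/Sca1+ cells. CD45 is the surface phosphatase found on blood cells, and Sca1 marks mouse stem cells and progenitors as well as several mature cell types. C57BL/6 mice of 6 to 8 weeks supplied the cells, and the 4 groups hold 2 arrays each. One group came from bone marrow and one from muscle with no injury, called uninjured muscle. The other two came from muscle damaged by cardiotoxin, a cobra venom peptide that kills myofibres, either without a transplant (untransplanted injured muscle) or in mice that had been given bone marrow (transplanted injured muscle). The sources used here do not give the time after injury, any pooling of animals, or the origin of the sorted cells in transplanted mice, from donor or from host.

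The 8 arrays had median intensities of 56.3 to 75.8. The ratio of the 3' to the 5' control probe set of Gapdh can rise as RNA is degraded. It was 10.7 to 46.9 on the bone marrow and uninjured muscle arrays and 0.808 to 0.882 on the injured muscle arrays. The same ratio for actin was 5.68 to 19.0 and 1.18 to 1.23. What set these ratios was not tested. Injury and these ratios cannot be told apart in any comparison of an injured with an uninjured group or with bone marrow, while both injured groups had like ratios. Ptprc, which encodes CD45, lay between 4924 and 6996 on the 8 arrays and passed the test in none of the 6 comparisons, with limma. Ly6a, which encodes Sca1, is not named by the annotation used here and was not analysed. The samples are bulk RNA, so fewer cells of a type and less RNA per cell cannot be told apart.

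As background, metalloproteinases are made as inactive proenzymes whose propeptide must be removed, by plasmin, by furin-like proteases or by another metalloproteinase. Mmp14 at the cell surface binds Timp2, and the pair docks pro-Mmp2 for activation. In muscle, these enzymes are known for clearing the basement membrane and interstitial collagen around damaged fibres, with macrophages, neutrophils and fibroblasts among the cells that make them. Several metalloproteinase genes lie side by side on mouse chromosome 9, and many carry a binding site for AP-1, the Fos and Jun transcription factor, close to the start of transcription.

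Mmp3, Mmp12 and Mmp13 belong to that chromosome 9 cluster. In the GRCm38.p6 RefSeq annotation Mmp13 spans chr9:7272514-7283333, Mmp12 chr9:7344397-7360461 and Mmp3 chr9:7445822-7455975. RefSeq start windows, from 250 bases before to 50 bases after a start, were held for 7 of the 10 genes, with 8 windows in all, since Mmp12 has 2. The AP-1 motif, searched as TGANTCA on both strands, was present in 3 of these 8 windows and in 7.81% of 32851 windows of mouse genes. The 150 bases before the start (plus strand, 5′ to 3′) are shown for those 3, because they are the windows with the motif, which is in capitals. They are chr9:7445672-7445821 for Mmp3, chr9:7347224-7347373 for Mmp12 and chr9:7272364-7272513 for Mmp13.
Mmp3: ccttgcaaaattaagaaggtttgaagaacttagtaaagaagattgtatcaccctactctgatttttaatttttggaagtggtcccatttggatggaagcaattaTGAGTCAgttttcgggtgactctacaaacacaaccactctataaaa
Mmp12: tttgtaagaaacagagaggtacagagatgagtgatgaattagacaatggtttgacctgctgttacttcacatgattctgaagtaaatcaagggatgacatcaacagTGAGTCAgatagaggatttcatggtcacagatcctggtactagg
Mmp13: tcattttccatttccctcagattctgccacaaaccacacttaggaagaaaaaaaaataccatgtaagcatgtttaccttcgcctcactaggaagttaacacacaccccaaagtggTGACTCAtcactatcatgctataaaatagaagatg

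The first base of the motif lay 46 bases before the start in Mmp3, 44 bases in this Mmp12 window and 35 bases in Mmp13. The other Mmp12 window and those of Mmp14, Timp1, Timp2 and Timp3 held no TGANTCA. Another motif, TATAAA on either strand, was in the same 3 windows and in 13.6% of all windows. Its first base lay 7 bases before the start in Mmp3 and 16 bases before it in Mmp13. In the Mmp12 window it lay after the start, outside the bases shown. AGGAAG, a core recognised by Ets factors, was in 6 of the 8 and in 35.4% of all. The values of these 3 genes, given next, differed in pattern: Mmp12 and Mmp13 were highest in transplanted injured muscle, while Mmp3 was under 38.4 there and in bone marrow.

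The gelatinases Mmp2 and Mmp9 cut denatured collagen and type IV collagen of basement membranes. Mmp2, the gelatinase made mainly by stromal cells, read 122 and 85.6 in bone marrow, then 1372 and 293 in uninjured muscle, 487 and 415 in untransplanted injured muscle, and 122 and 97.2 in transplanted injured muscle. Uninjured and untransplanted injured muscle were high and overlapped each other, while bone marrow and transplanted injured muscle were low and overlapped each other. Between transplanted injured and uninjured muscle Mmp2 fell by 2.50 on the log2 scale (SE 0.64, limma adjusted p = 0.0208, 5.67-fold). The log2 value was -1.40 without uninjured muscle replicate 1 and -3.61 without replicate 2 (adjusted p = 0.0221 and 0.000235). The higher level of uninjured muscle over bone marrow, at a log2 fold change of 2.59 (SE 0.64), missed the threshold with this probe set (adjusted p = 0.0561). The second probe set of Mmp2, 1416136_at, passed there (2.60, SE 0.40, adjusted p = 0.00727), with readings of 753 and 359 in uninjured muscle against 84.3 and 81.0 in bone marrow. Untransplanted injured muscle was 4.27-fold above bone marrow with the first probe set (log2 2.09, adjusted p = 0.0399) and 4.45-fold with the second (log2 2.15, adjusted p = 0.00554). With the first probe set the fall in transplanted injured muscle lost its call without either array of that group (log2 -2.66 and -2.35, adjusted p = 0.0819 and 0.11). The rise over bone marrow in untransplanted injured muscle lost its call without any 1 bone marrow or injured muscle array (log2 1.85 to 2.34, adjusted p up to 0.172).

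Mmp9, the gelatinase stored in neutrophil granules, was highest in bone marrow. It read 1021 and 1080 in bone marrow, then 824 and 735 in uninjured muscle, 123 and 127 in untransplanted injured muscle, and 91.6 and 62.3 in transplanted injured muscle. No 2 groups overlapped, and both injured groups were low. Compared with uninjured muscle, Mmp9 fell by 2.60 on the log2 scale in untransplanted injured muscle (SE 0.31, adjusted p = 0.00199, 6.07-fold). In transplanted injured muscle it fell by 3.30 (SE 0.31, adjusted p = 0.000668, 9.83-fold). Bone marrow and uninjured muscle differed by a log2 fold change of -0.43 (SE 0.31, adjusted p = 0.512). The second probe set, 1448291_at, split the uninjured muscle arrays, at 118 and 973, and its difference for untransplanted injured muscle did not pass (log2 -1.71, SE 0.88, adjusted p = 0.18). It did pass for transplanted injured muscle, at 13.9 and 35.3 (log2 -3.70, adjusted p = 0.0158).

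Mmp3, stromelysin 1, cuts proteoglycans and activates other proenzymes. It read 20.3 and 26.5 in bone marrow, then 88.5 and 54.7 in uninjured muscle, 34.8 and 77.3 in untransplanted injured muscle, and 19.9 and 19.2 in transplanted injured muscle. Both bone marrow and both transplanted arrays stayed under 38.4, and uninjured and untransplanted injured muscle overlapped. Transplanted injured muscle was at least 1.74-fold lower than uninjured muscle (log2 -1.65, SE 0.50, adjusted p = 0.0388). That call was lost without uninjured muscle replicate 1 (log2 -1.32, adjusted p = 0.146), without either bone marrow array (log2 -1.65 in both fits, adjusted p = 0.0543 and 0.0553) and without either transplanted array (log2 -1.67 and -1.62, adjusted p = 0.129 and 0.134).

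Mmp12, the macrophage elastase, had the widest range of log2 readings among the 10 genes. Its readings were 2.7 and 3.3 in bone marrow, then 45.5 and 60.7 in uninjured muscle, 444 and 461 in untransplanted injured muscle, and 1984 and 1575 in transplanted injured muscle. The readings stood in that order, from lowest to highest, without overlap between groups. Uninjured muscle was at least 1.34-fold above bone marrow, whose arrays were both under 38.4 (log2 3.02, SE 0.33, adjusted p = 0.00159). Untransplanted injured muscle was 8.07-fold above uninjured muscle (log2 3.01, SE 0.33, adjusted p = 0.00151). Transplanted injured muscle was 31.3-fold above the same uninjured arrays (log2 4.97, SE 0.33, adjusted p = 0.000235). Against bone marrow, transplanted injured muscle was at least 41.8-fold higher (adjusted p = 2.2e-05) and untransplanted injured muscle at least 10.8-fold higher (adjusted p = 3.73e-05).

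Mmp13 is the main interstitial collagenase of mice and cuts fibrillar collagens I and III. It read 1.88 and 7.51 in bone marrow, then 97.3 and 136 in uninjured muscle, 113 and 125 in untransplanted injured muscle, and 281 and 578 in transplanted injured muscle. Bone marrow was under 38.4 on both arrays, uninjured and untransplanted injured muscle overlapped, and transplanted injured muscle was above the rest. Uninjured muscle was at least 2.81-fold above bone marrow (log2 3.85, SE 0.49, adjusted p = 0.00322). Untransplanted injured and uninjured muscle differed by a log2 fold change of 0.04 (SE 0.49, adjusted p = 0.953). Transplanted injured muscle was 3.43-fold above uninjured muscle (log2 1.78, SE 0.49, adjusted p = 0.0276). This last call was lost without uninjured muscle replicate 1 (log2 1.54, adjusted p = 0.0762), without transplanted replicate 2 (log2 1.26, adjusted p = 0.179) and without either untransplanted injured array (log2 1.78, adjusted p = 0.0523 in both fits).

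Mmp14, the membrane-type metalloproteinase that activates pro-Mmp2, read 31.5 and 47.4 in bone marrow, then 101 and 199 in uninjured muscle, 777 and 757 in untransplanted injured muscle, and 347 and 351 in transplanted injured muscle. The groups did not overlap, and untransplanted injured muscle was highest. Its rise over uninjured muscle was 5.29-fold (log2 2.40, SE 0.40, adjusted p = 0.00553). The second probe set, 1416572_at, read between 1.0 and 5.11 on the bone marrow and uninjured muscle arrays, 239 and 238 in untransplanted injured muscle, and 107 and 109 in transplanted injured muscle. With it the rise over uninjured muscle was at least 5.73-fold (adjusted p = 0.000858). Transplanted injured muscle was 2.42-fold above uninjured muscle with the first probe set (log2 1.28, SE 0.40, adjusted p = 0.0417) and at least 2.64-fold with the second (adjusted p = 0.00105). The first probe set's call was lost without uninjured muscle replicate 1 (log2 0.80, adjusted p = 0.104) and without any 1 injured muscle array (log2 1.27 to 1.28, adjusted p up to 0.162). Uninjured muscle was 3.41-fold above bone marrow with the first probe set (log2 1.77, SE 0.40, adjusted p = 0.0393). That call was lost without either bone marrow array (log2 1.51 and 2.04) or any 1 injured muscle array (log2 1.77). The second probe set, under 38.4 in both groups, did not pass there (log2 0.69, SE 0.43, adjusted p = 0.432). With the probe sets of Mmp14 averaged the call was lost as well (log2 1.23, adjusted p = 0.0696).

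Mmp19, a metalloproteinase that cuts basement membrane proteins, read 1.59 and 8.71 in bone marrow, then 14.7 and 20.1 in uninjured muscle, 188 and 237 in untransplanted injured muscle, and 232 and 173 in transplanted injured muscle. The uninjured muscle and bone marrow arrays were all under 38.4, and the 2 injured groups were high and overlapped. Untransplanted injured muscle was at least 5.08-fold above uninjured muscle (log2 3.34, SE 0.49, adjusted p = 0.00379) and transplanted injured muscle at least 4.81-fold (log2 3.26, SE 0.49, adjusted p = 0.0027). The second probe set, 1421976_at, with 53.9 and 66.7 in uninjured muscle against 116 to 169 on the 4 injured arrays, gave smaller folds, 2.04 without a transplant (adjusted p = 0.0659) and 2.36 with one (adjusted p = 0.0312).

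Among the inhibitors, Timp1, a secreted inhibitor of most soluble metalloproteinases, followed the order of Mmp14. It read 13.6 and 42.7 in bone marrow, then 117 and 122 in uninjured muscle, 844 and 938 in untransplanted injured muscle, and 515 and 478 in transplanted injured muscle. The 4 groups did not overlap, and both injured groups were above the rest. It rose 7.23-fold over uninjured muscle in untransplanted injured muscle (log2 2.85, SE 0.46, adjusted p = 0.00498) and 4.05-fold in transplanted injured muscle (log2 2.02, SE 0.46, adjusted p = 0.0133). The second of these was lost without either transplanted array (log2 1.96 and 2.07, adjusted p = 0.0809 and 0.0702). Uninjured muscle was 4.31-fold above bone marrow (log2 2.11, SE 0.46, adjusted p = 0.0339), a call lost without bone marrow replicate 1 (log2 1.41, adjusted p = 0.102) or without any 1 injured muscle array (log2 2.11, adjusted p up to 0.0873). Without bone marrow replicate 2 the log2 value was 2.81.

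Timp2, the inhibitor that also bridges Mmp14 and pro-Mmp2, read 397 and 622 in bone marrow, then 2921 and 3296 in uninjured muscle, 5382 and 6128 in untransplanted injured muscle, and 4619 and 5035 in transplanted injured muscle. All 4 groups were apart, with bone marrow lowest. Uninjured muscle was 6.20-fold above bone marrow (log2 2.63, SE 0.26, adjusted p = 0.00094). Untransplanted injured muscle was 1.85-fold above uninjured muscle (log2 0.89, SE 0.26, adjusted p = 0.0372), and the value for transplanted injured muscle, 1.55-fold, did not pass (log2 0.64, SE 0.26, adjusted p = 0.0898). The 1.85-fold rise lost its call without uninjured muscle replicate 1 (log2 0.80, adjusted p = 0.0726), without either untransplanted injured array (log2 0.98 and 0.79, adjusted p = 0.132 and 0.192) and without either transplanted array (log2 0.89 in both fits, adjusted p = 0.0719 and 0.0724).

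The 6 probe sets of Timp2 disagreed on the size of that rise, as the plot of single probe sets shows. For untransplanted injured against uninjured muscle, 1433662_s_at gave a log2 fold change of 0.65 (adjusted p = 0.233) and 1454677_at gave 0.41 (adjusted p = 0.42). By contrast 1450040_at gave 2.30 (adjusted p = 0.0405) and 1420924_at gave 3.64 (SE 0.36, adjusted p = 0.00113). The last of these read 38.7 and 31.1 in uninjured muscle and 502 and 457 in untransplanted injured muscle, with 28.7 and 49.9 in bone marrow. It was the tested Timp2 probe set whose uninjured muscle and bone marrow arrays overlapped. The sixth, 1437081_at, stayed between 1.52 and 14.0 on the 8 arrays and was not tested. For transplanted injured against uninjured muscle the probe sets disagreed as well. There 1450040_at gave 2.16 (adjusted p = 0.0422) and 1420924_at gave 3.14 (adjusted p = 0.0011), and both passed. By contrast 1433662_s_at gave 0.12 (adjusted p = 0.835) and 1454677_at gave -0.23 (adjusted p = 0.639).

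**Figure D1:**
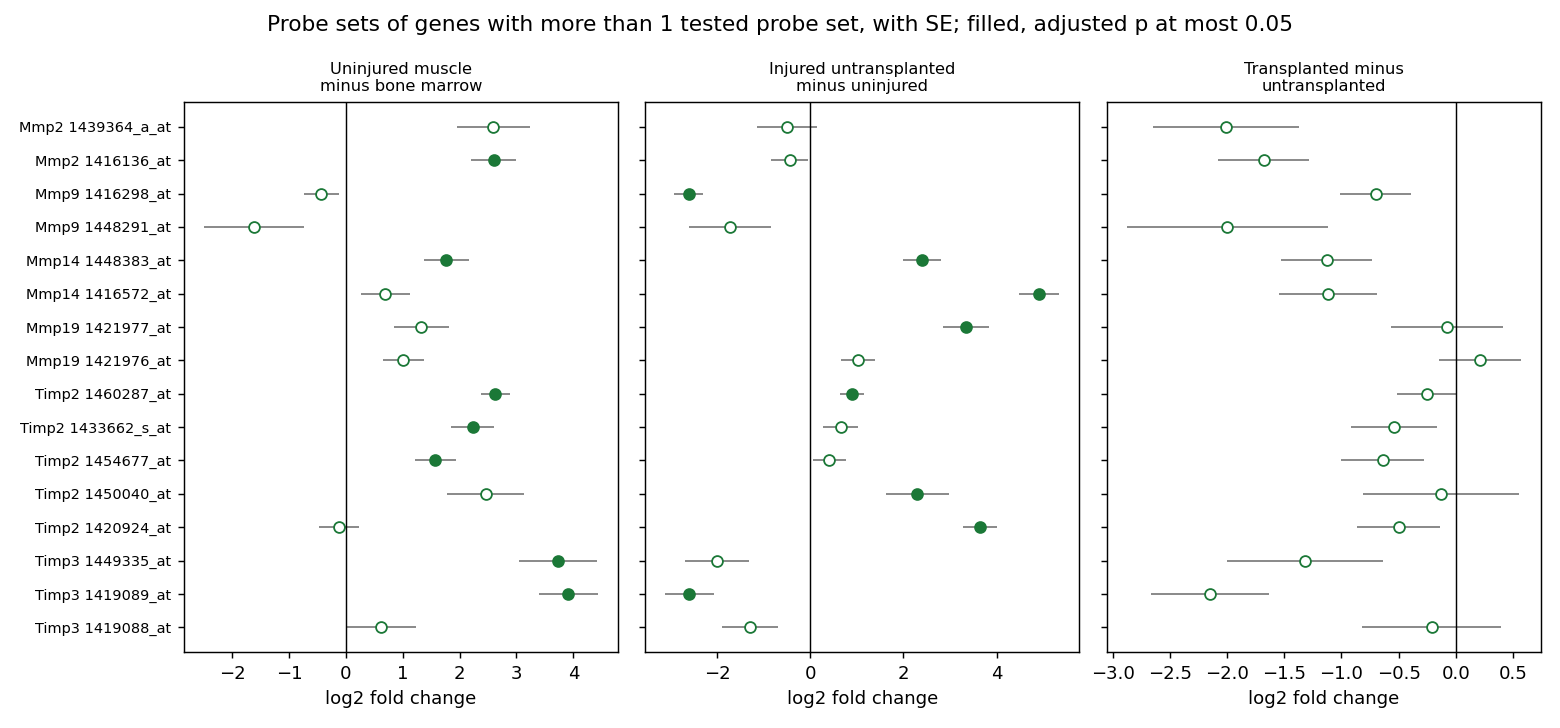
log2 fold changes (x axis) with the SE of the limma fit (bars) for the 16 tested probe sets of the genes with more than 1, in 3 comparisons, with filled points at an adjusted p of at most 0.05. For untransplanted injured against uninjured muscle the 5 tested probe sets of Timp2 ran from 0.41 to 3.64, and those of Mmp14 were 2.40 and 4.91.

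Timp3, the inhibitor that is held in the matrix and also blocks several ADAM and ADAMTS proteases, read 12.4 and 25.1 in bone marrow, then 565 and 144 in uninjured muscle, 62.2 and 75.5 in untransplanted injured muscle, and 36.4 and 16.9 in transplanted injured muscle. Uninjured muscle was high on both arrays with a wide spread, and bone marrow and transplanted injured muscle overlapped under 38.4. Uninjured muscle was at least 6.84-fold above bone marrow (log2 3.73, SE 0.68, adjusted p = 0.016). This call was lost without either bone marrow array (log2 3.32 and 4.14, adjusted p = 0.118 and 0.0591), and the log2 value was 2.76 without uninjured muscle replicate 1 and 4.70 without replicate 2. Transplanted injured muscle was at least 6.84-fold below uninjured muscle (log2 -3.32, SE 0.68, adjusted p = 0.00882), a call lost without transplanted replicate 2 (log2 -2.84, adjusted p = 0.0644). Without uninjured muscle replicate 1 that log2 value was -2.34, and without replicate 2 it was -4.29. The 3.99-fold lower level of untransplanted injured muscle missed the threshold (adjusted p = 0.0619), while 1419089_at, at 345 and 186 against 32.0 and 47.1, passed for the same comparison (log2 -2.59, SE 0.52, adjusted p = 0.0104). Of its other probe sets, 1419088_at lay between 7.42 and 65.6 and passed in 0 of the 6 comparisons, and 1449334_at was not tested.

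**Figure D2:**
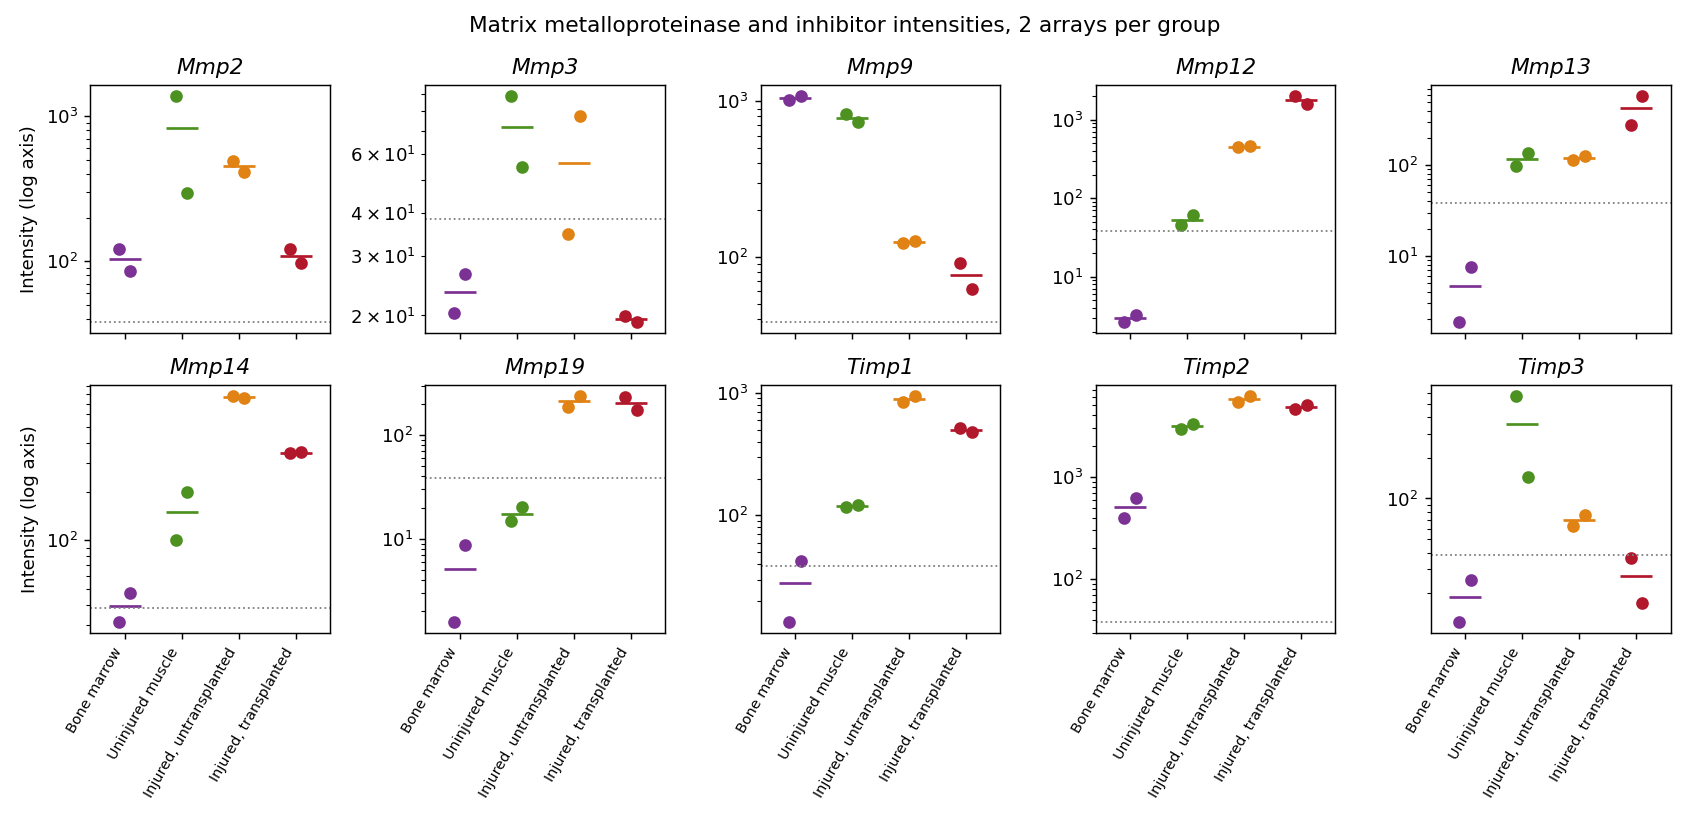
Intensity (log axis, each gene on its own scale) of the representative probe set of each gene on 8 arrays, with points for arrays, horizontal bars for group means and a dotted line at 38.4 where it lies in range. Mmp12 rose from 2.7 and 3.3 in bone marrow to 1984 and 1575 in transplanted injured muscle, Mmp9 was highest in bone marrow, and Mmp2, Mmp3 and Timp3 had their highest mean in uninjured muscle.

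The comparison of uninjured muscle with bone marrow asks how these cells differ between the tissues. Of the 10 genes, 6 were higher in muscle (Mmp12, Mmp13, Mmp14, Timp1, Timp2 and Timp3), 0 were lower and 4 did not pass, against 4.83% of all 16289 tested probe sets called higher and 1.25% called lower. The readings of muscle and bone marrow were apart for all 10 genes, as they were for 43.7% of all probe sets. The median log2 fold change of the 10 genes was 2.35 (1.48 with readings under 38.4 set to that value), beside -0.03 over all probe sets. Without bone marrow replicate 1 the count was 3.

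**Figure D3:**
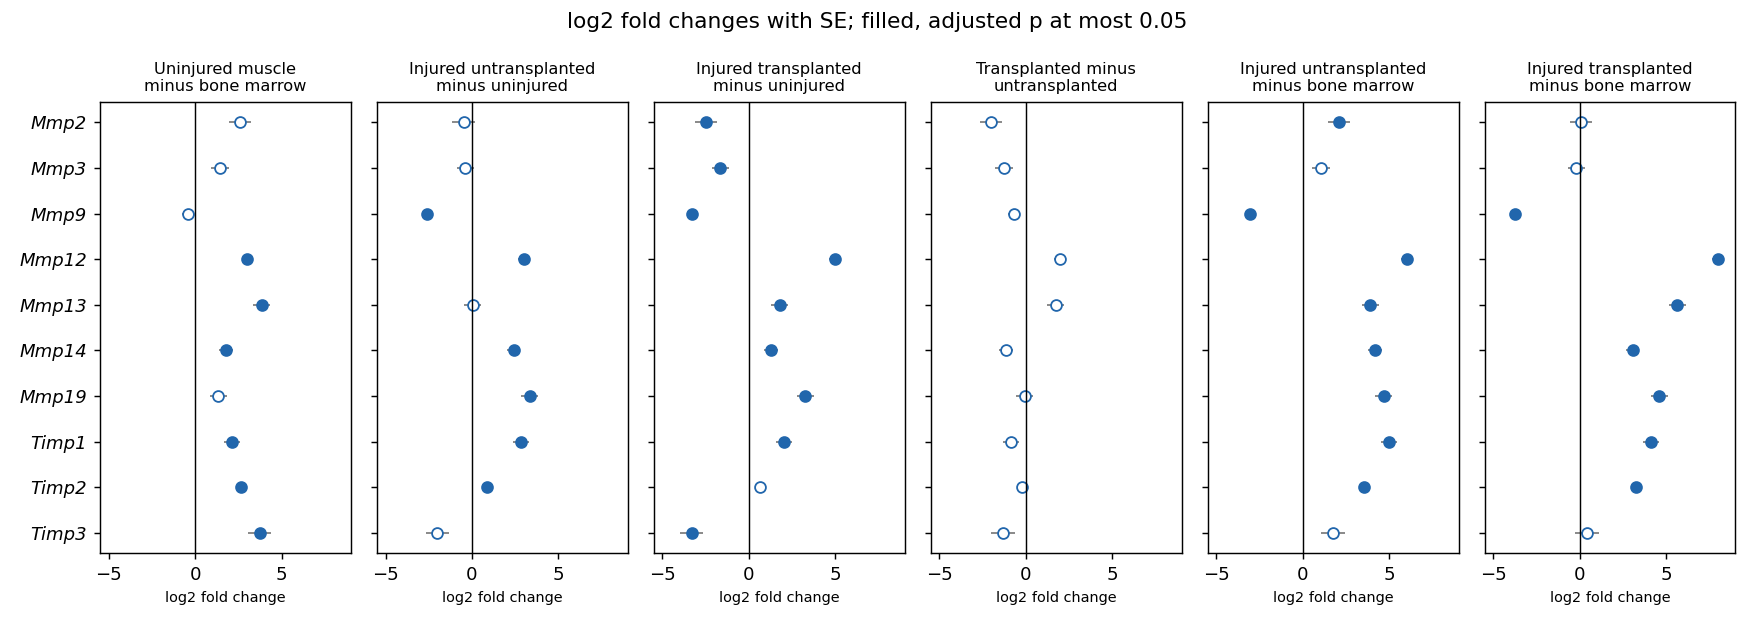
log2 fold changes (x axis) of the 10 genes with the SE of the limma fit (bars) in 6 comparisons, with filled points at an adjusted p of at most 0.05. Mmp12 had a log2 fold change of 7.98 between transplanted injured muscle and bone marrow, and no point is filled for transplanted against untransplanted injured muscle.

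After injury without a transplant, 5 genes were higher than in uninjured muscle (Mmp12, Mmp14, Mmp19, Timp1 and Timp2) and 1 was lower (Mmp9). Of all tested probe sets, 12.1% were called higher and 13.9% lower in this comparison. The groups were apart for 7 of the 10 genes, a share close to the 66.3% of all probe sets. The median log2 fold change was 0.47, beside -0.14 over all probe sets.

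Injured muscle of transplanted mice, set against the same uninjured arrays, had 5 genes higher (Mmp12, Mmp13, Mmp14, Mmp19 and Timp1), 4 lower (Mmp2, Mmp3, Mmp9 and Timp3) and 1 that did not pass (Timp2). Over all tested probe sets, 13.9% were called higher and 18.5% lower, and the groups were apart for all 10 genes and for 68.8% of all probe sets. The median was 0.96, beside -0.19 over all probe sets. With the log2 values of each array centred on their median, which moved the median of all probe sets by 0.28 here, 6 genes were called higher and 3 lower. With the probe sets of each gene averaged, 6 genes were called higher, Timp2 among them, and 4 lower. The centred fit called 31.4% of all probe sets in either direction, and the averaged fit 28.2% of all genes. Without transplanted replicate 1 the count of called genes was 5, and without transplanted replicate 2 it was 3 (Mmp9, Mmp12 and Mmp19).

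Both injured groups were also set against the same bone marrow arrays. In untransplanted injured muscle 7 genes were higher, against 15.5% of all probe sets, and 1 (Mmp9) was lower, against 15.5%, and the groups were apart for all 10 genes and for 73.1% of all probe sets. In transplanted injured muscle 6 were higher, against 15.1%, and 1 (Mmp9) was lower, against 17.4%, and 8 genes were apart, as were 72.9% of all probe sets. Mmp9 was 8.17-fold lower without a transplant (adjusted p = 0.000477) and 13.2-fold lower with one (adjusted p = 0.000189). Timp1 was 31.2-fold higher without a transplant (adjusted p = 0.000301) and 17.5-fold with one (adjusted p = 0.000595), and Mmp14 was 18.1-fold and 8.26-fold higher (adjusted p = 0.000344 and 0.00122). The log2 fold changes of Timp1, 4.96 and 4.13, were 4.26 and 3.42 without bone marrow replicate 1 and 5.67 and 4.83 without replicate 2. Mmp2 in transplanted injured muscle lay near bone marrow, with a log2 fold change of 0.08 (SE 0.64, adjusted p = 0.931).

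The direct comparison of transplanted with untransplanted injured muscle sets the 2 injured groups against each other. The time after injury and any pooling of animals are not given, so the transplant cannot be told apart from other differences between them. With limma, 0 of the 10 genes passed, against 0.0246% of all probe sets called higher and 0.227% called lower. At an unadjusted p under 0.05 there were 5 genes, against 8.75% of all probe sets. Mmp12 was 3.88-fold higher with the transplant (log2 1.96, SE 0.33, unadjusted p = 0.000342, adjusted p = 0.0677) and Mmp13 3.32-fold higher (log2 1.73, SE 0.49, adjusted p = 0.262). In the other direction Mmp2 was 4.02-fold lower (log2 -2.01, SE 0.64, adjusted p = 0.336), Mmp14 2.18-fold lower (log2 -1.13, SE 0.40, adjusted p = 0.403), and Mmp3 had a log2 fold change of -1.26 (adjusted p = 0.505). The readings of the 2 injured groups were apart for 9 of the 10 genes, Mmp19 being the one that overlapped, and for 50.2% of all probe sets.

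The spread that enters this comparison comes from all 8 arrays. The uninjured muscle arrays varied widely in Mmp2 (833 ± 763) and Timp3 (354 ± 298), though Timp3 was not called in any of the fits below. The count stayed at 0 with quantile normalization, with median centring, without an intensity trend and with the replicate number as a block. It moved in the fits that follow, and what moved it was not tested. Fitted on the 4 injured arrays alone, limma called 5 genes (Mmp12 and Mmp13 higher, Mmp2, Mmp14 and Timp1 lower), where 6.91% of all probe sets were called. With arrays weighted by their quality it called 4 (Mmp2, Mmp12, Mmp13 and Mmp14), where 4.98% were called. Without uninjured muscle replicate 1 or replicate 2 it called Mmp2 and Mmp12, at 1.5% and 1.65% of all probe sets.

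**Figure D4:**
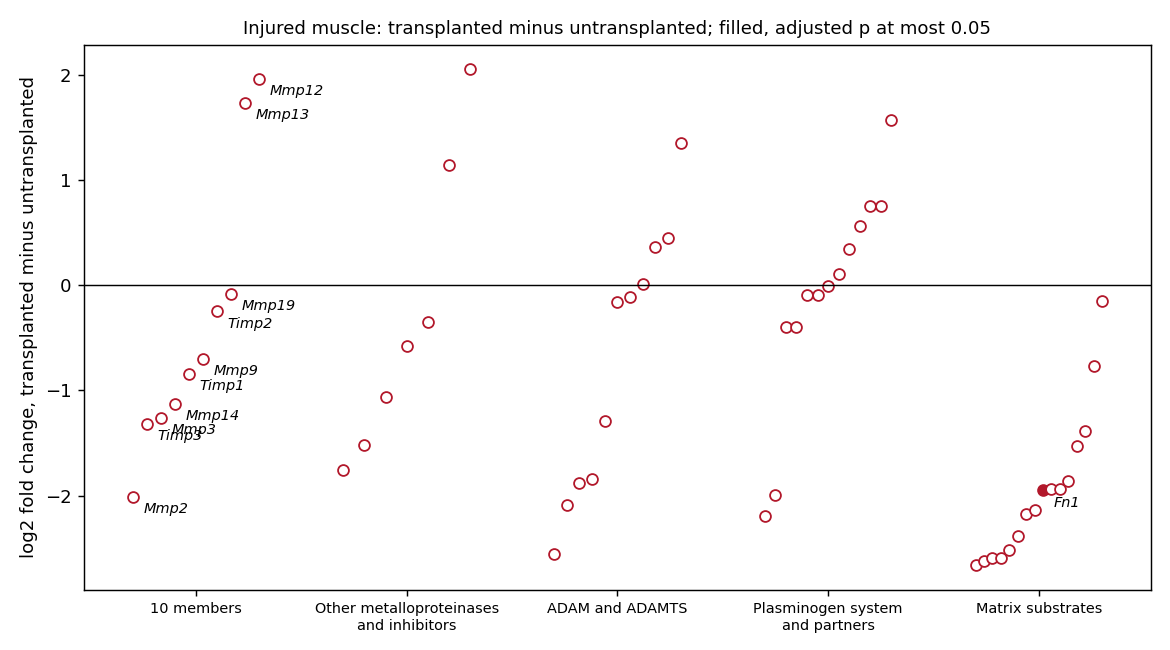
log2 fold change (y axis) of transplanted against untransplanted injured muscle for the 10 genes and the tested members of 4 related lists, each sorted from low to high, with filled points at an adjusted p of at most 0.05. Mmp12 and Mmp13 lie at 1.96 and 1.73, Mmp2 lies at -2.01, and Fn1 is the filled point, at -1.95.

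Of 20 other metalloproteinases and inhibitors, 15 had a probe set and 7 were tested. Timp4, an inhibitor found mainly in heart and muscle, read 1114 and 826 in uninjured muscle and between 1.84 and 20.1 on the other 6 arrays. It was at least 22.7-fold higher in uninjured muscle than in bone marrow (adjusted p = 0.00324), untransplanted injured muscle (adjusted p = 0.00202) or transplanted injured muscle (adjusted p = 0.00102). For uninjured muscle against bone marrow it was the 1 of 7 that passed. There 4.83% of all probe sets were called higher and 1.25% lower. In untransplanted injured muscle Mmp17 and Timp4 were lower than in uninjured muscle. In transplanted injured muscle Timp4, Reck (a membrane-anchored inhibitor) and Mmp24 were lower, with 0 higher in both. Of all probe sets, 12.1% were called higher and 13.9% lower without a transplant, and 13.9% and 18.5% with one. Mmp8, the collagenase of neutrophil granules, was 8.53-fold lower in untransplanted injured muscle than in bone marrow (87.7 ± 11.2 against 794 ± 240, adjusted p = 0.011). In transplanted injured muscle it read 486 and 288, which did not pass against bone marrow (adjusted p = 0.267) or uninjured muscle (621 and 128, adjusted p = 0.672). The median log2 fold changes of the 7 were 1.13 for uninjured muscle against bone marrow, -1.65 for untransplanted and -1.52 for transplanted injured against uninjured muscle (0.36, -0.63 and -0.62 with readings under 38.4 set to it).

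The ADAM and ADAMTS list, relatives that shed surface proteins or cut proteoglycans, had 17 genes, 14 with a probe set and 11 tested. In uninjured muscle 4 were higher than in bone marrow, with the aggrecan-cleaving Adamts1 at 1368 ± 933 against 14.4 ± 0.626 (at least 28.4-fold, adjusted p = 0.000376), and 0 were lower. Adam8, a myeloid surface protease, was 4.37-fold above uninjured muscle in untransplanted injured muscle (1669 ± 79.7 against 448 ± 340, adjusted p = 0.0187) and 11.1-fold in transplanted injured muscle (4271 ± 653, adjusted p = 0.00236). It was 1 of 2 genes higher in the first, with 0 lower. In the second it was the 1 gene higher, with 3 lower (Adam19, Adamts1 and Adamts4). Of all probe sets, 12.1% were called higher and 13.9% lower in the first, and 13.9% and 18.5% in the second. For uninjured muscle against bone marrow the shares were 4.83% and 1.25%. The list's median was 1.02 for uninjured muscle against bone marrow (0.49 with readings under 38.4 set to it). It was 0.02 for untransplanted injured and -0.43 for transplanted injured against uninjured muscle.

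Of 17 genes of the plasminogen system and of other activators and partners, 13 were tested. Lcn2, a neutrophil granule protein, was 4.14-fold lower in uninjured muscle than in bone marrow (1222 ± 402 against 4973 ± 859, adjusted p = 0.0115). It was at least 28.1-fold lower again in untransplanted injured than in uninjured muscle, at 32.7 ± 1.91 (adjusted p = 0.000421). Bsg (CD147, an inducer of metalloproteinases), Cd44 (a hyaluronan receptor that can hold Mmp9 and Mmp14 at the surface) and Thbs1 (thrombospondin 1) were the 3 genes higher than uninjured muscle in untransplanted injured muscle, where Lcn2 and the proprotein convertase Pcsk5 were lower. In transplanted injured muscle Bsg, Cd44 and Thbs1 were higher as well, and Lcn2 and Plat, tissue plasminogen activator, were lower. Of all probe sets, 12.1% were called higher and 13.9% lower without a transplant, and 13.9% and 18.5% with one. Thbs1 was 11.9-fold higher without a transplant (2049 ± 47.9 against 198 ± 150, adjusted p = 0.012) and 17.5-fold with one (3087 ± 933, adjusted p = 0.00539). For uninjured muscle against bone marrow 2 genes of this list were higher (Plat and Thbs2) and 1 lower (Lcn2). There 4.83% of all probe sets were called higher and 1.25% lower. The list's median was 0.72 for uninjured muscle against bone marrow, 0.30 for untransplanted and -0.44 for transplanted injured against uninjured muscle (0.07 and -0.02 for the latter pair with readings under 38.4 set to it).

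All 16 matrix proteins listed as substrates were tested. In uninjured muscle 13 were higher than in bone marrow and 0 lower, among them Sparc, a collagen-binding matricellular protein (2423 ± 971, at least 54.9-fold, adjusted p = 5.49e-05), and the list's median log2 fold change was 4.35 (3.66 with readings under 38.4 set to it). Untransplanted injured muscle had 1 gene higher than uninjured muscle, the proteoglycan Bgn, and 2 lower, the basement membrane collagens Col4a1 and Col4a2, with a median of 0.00. Transplanted injured muscle had 9 lower and 0 higher, with a median of -1.85, beside -0.19 over all probe sets. Col4a1, a substrate of the gelatinases, was 23.4-fold lower there (146 ± 33.0 against 3654 ± 1719, adjusted p = 0.000519). Of all probe sets, 12.1% were called higher and 13.9% lower without a transplant, and 13.9% and 18.5% with one. For uninjured muscle against bone marrow the shares were 4.83% and 1.25%, and for transplanted against untransplanted injured muscle 0.0246% and 0.227%. Between the injured groups 1 gene passed in this list and 0 in each of the other 3: Fn1 (fibronectin) was 3.87-fold lower with the transplant (987 ± 8.08 against 3829 ± 73.7, log2 -1.95, SE 0.23, adjusted p = 0.0291).

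Markers of other cells moved with several of these genes, including fibroblast, endothelial and muscle fibre markers of cells that a sort on CD45 would be expected to remove. The 13 fibroblast and mesenchymal markers summed to 2504 to 2712 in bone marrow, 8607 to 19914 in uninjured muscle, 13832 to 14167 in untransplanted injured muscle and 4291 to 5739 in transplanted injured muscle. Their sum was higher on uninjured muscle replicate 1, the array with the higher Mmp2, Mmp3 and Timp3. That array also had the higher 3'/5' ratios of Gapdh (46.9 against 13.6 on replicate 2) and actin (19.0 against 10.1). In bone marrow 8 of the 13 were under 38.4 on both arrays, Pdgfra, Dpt and Postn among them, and in transplanted injured muscle 1 was (Fbln1). Thy1 (897 and 1774) and Gsn (1333 and 681) had the highest bone marrow readings of the list. Gsn was higher in transplanted than in untransplanted injured muscle (3093 ± 992 against 1628 ± 408). The list's median log2 fold change for that comparison was -2.5. The part of fibroblasts and mesenchymal cells in the differences of Mmp2, Mmp3 and Timp3 was not tested.

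Summed over the 9 neutrophil granule markers, intensities were 37300 to 50050 in bone marrow and 16810 to 30264 in uninjured muscle, but only 380 to 442 in untransplanted and 626 to 669 in transplanted injured muscle. All 9 were lower in both injured groups than in uninjured muscle, against 13.9% of all probe sets without a transplant and 18.5% with one. Ngp, Camp, Ltf, Elane and Ctsg were under 38.4 on all 4 injured arrays. Mmp9 and Lcn2 were likewise high in bone marrow and uninjured muscle and low in both injured groups. Mmp8, the neutrophil collagenase, read 621 and 128 in uninjured muscle and 79.8 and 95.6 in untransplanted injured muscle. In transplanted injured muscle, where the granule markers were low, it read 486 and 288. The part of neutrophils in the differences of Mmp8, Mmp9 and Lcn2 was not tested. The 12 monocyte and macrophage markers summed to 8465 to 10014 in bone marrow, 28371 to 46031 in uninjured muscle, 100193 to 107717 in untransplanted and 93975 to 98577 in transplanted injured muscle. Between the injured groups 0 of these 12 passed. Among them Itgam read 527 and 655 without a transplant and 1149 and 1164 with one, while Cd163 read 553 and 494 against 160 and 169. The part of these cells in the differences of Mmp12, Mmp14, Mmp19 and Timp1 was not tested. For the 8 endothelial markers the sums were 2929 to 4073 in uninjured muscle against 376 to 452 on the 4 injured arrays. The 7 muscle fibre markers summed to 3185 to 5021 in uninjured, 789 to 898 in untransplanted injured and 171 to 180 in transplanted injured muscle. In bone marrow they summed to 108 to 158. With limma, Tnnc2 and Mylpf of the fibre list and Postn of the fibroblast list were lower with the transplant than without. Of all probe sets 0.227% were called lower there, and 0 endothelial or neutrophil markers passed. The part of endothelial cells and fibres in the fall of Timp3 and Timp4 was not tested.

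**Figure D5:**
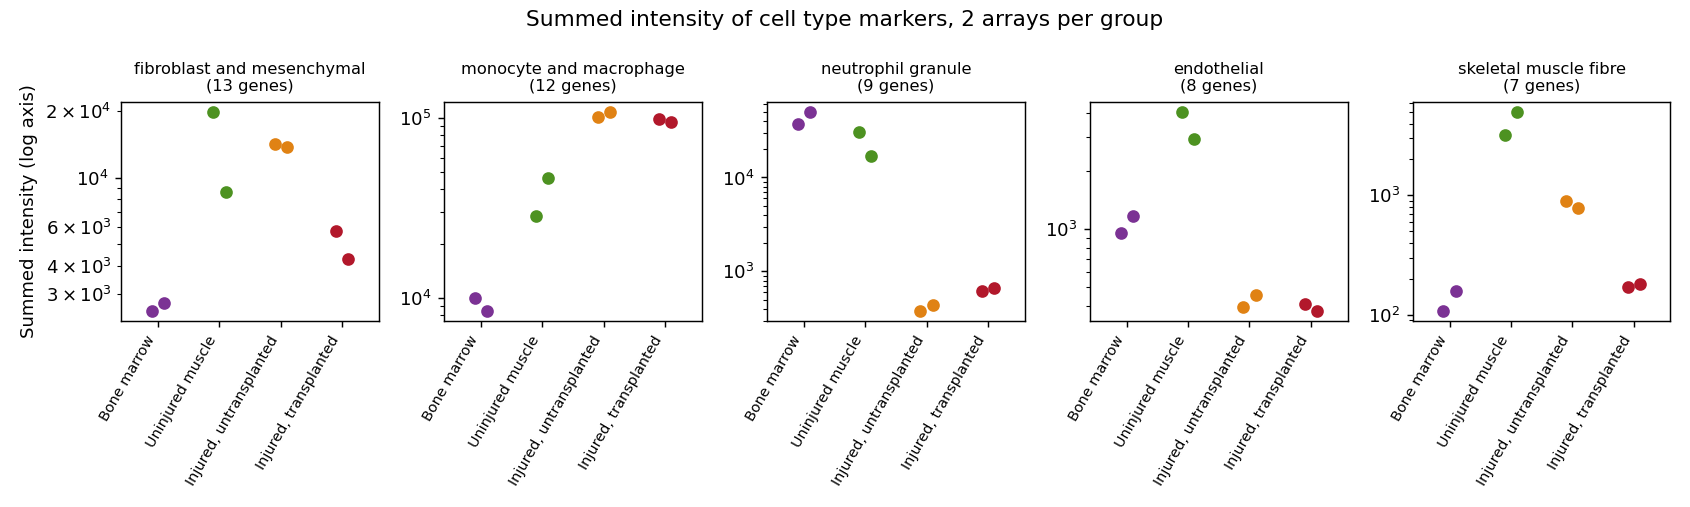
Summed intensity (log axis) of the representative probe sets of 5 marker lists on 8 arrays, 1 point per array, coloured by group. Neutrophil granule markers fell from 16810 to 30264 in uninjured muscle to 380 to 669 on the 4 injured arrays, and fibroblast marker sums were lower in transplanted than in untransplanted injured muscle.

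The genes whose log2 readings followed each member most closely over the 8 arrays are given as a description by Pearson's r, in which 4 groups of 2 arrays share tissue and treatment. Closest to Mmp12 were Cd84 (a leukocyte surface receptor, r = 0.992), Gla (lysosomal alpha-galactosidase, 0.987) and Sap30 (0.986), and closest to Mmp13 were Ifi204 (0.988), Fgd6 (0.987) and Epb41l1 (0.986). Mmp14 was matched by Sulf2 (0.998), Nr4a2 (0.997) and Pea15a (0.988), and Timp1 by Zfp90 (0.998), Cxcl10 (0.997) and Wdfy3 (0.990). Mmp2 was closest to Lama2, the laminin chain of muscle basement membrane (0.984), Grb10 (0.969) and Epdr1 (0.969), and Timp3 to Abca8a (0.987), Slc10a6 (0.972) and Fhl1 (0.971). Mmp9 was matched by Gle1 (0.997), Hnrnpc (0.995) and F2r (0.994), Mmp3 by Cdr2l (0.980), Creb3l1 (0.961) and Peg3 (0.951), Mmp19 by Tmsb4x (0.997), Nr1h3 (0.996) and Actg1 (0.993), and Timp2 by Olfm1 (0.992), Ier3 (0.989) and Tgfbi (0.989).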

How the data were processed

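The authors deposited 1 linear intensity for each probe set and array, already scaled so that the trimmed mean (lowest and highest 2% left out) of each array is about 250, checked at 250.09 to 250.12. GCOS is named in the submitters' processing notes, whose role for it, like the summary of probes into probe sets, is not given in the sources used here. Biotin labelling started from 1 µg of RNA, per the labels' protocols. Nothing in the labels ties the replicates to separate animals: p-values therefore reflect the spread between arrays alone, and this may be technical.

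After 64 control probe sets were left out, 22626 remained, of which 20380 have 1 gene in the platform annotation, 691 several and 1555 none. Symbols were updated for 20351 through gene identifiers of GRCm38.p6 RefSeq. Tests used log2(value + 4), after raising values below 1 to 1, so fold changes of dim probe sets are understated. A probe set was tested if at least 2 of 8 arrays reached 38.4, the 40th percentile, and a gene's representative is its probe set of highest mean intensity. A fold is written "at least" and taken against 38.4 where the lower group had both arrays below it, which makes no statement on detection. Groups were compared with limma 3.58.1 under R 4.3.3 on all 8 arrays, 1 mean per group, with an intensity trend, two-sided, 4 residual and 4.07 prior degrees of freedom, and Benjamini-Hochberg adjustment over 16289 probe sets per comparison at a threshold of 0.05. Precision is limited by having 8 arrays, with a median SE of 0.45 (log2).

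Named genes were the 10 members, the up to 4 genes of each related list with the smallest p among those called in a comparison, and for likeness the 3 genes with the highest r. Cd44 and the single marker genes were named after their values were seen. The members, lists and tests were chosen with earlier results of these data known. Comparisons that share uninjured muscle or bone marrow arrays are not independent. Alternatives were 2 other normalizations, 2 other pseudocounts, 2 other filters, array weights, no intensity trend, the replicate number as a block, only the 4 arrays compared, averaging a gene's probe sets, and each array left out.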

Additional observations from a re-analysis of the deposited data

How the results depend on the processing

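Over 683 values of the 36 calls under the alternatives, 611 kept the call, 72 lost it and 0 reversed direction. Calls held under all 19 alternatives for Mmp13 and Timp2 (uninjured muscle against bone marrow), Mmp9, Mmp12, Mmp14, Mmp19 and Timp1 (untransplanted injured against uninjured muscle), and Mmp9, Mmp12 and Mmp19 (transplanted injured against uninjured muscle). Against bone marrow they also held under all 19 for every called gene of both injured groups except Mmp2 without a transplant, which was lost under 9. Mmp14 for uninjured muscle against bone marrow and Mmp3 for transplanted injured against uninjured muscle were each lost under 10. The count for uninjured muscle against bone marrow, 6, became 3 with the pseudocount at the median of all values and 2 with only the 4 arrays compared, and ranged from 3 to 7 with 1 array left out. For transplanted injured against uninjured muscle the count of 9 became 5 with only the 4 arrays and ranged from 3 to 9 with 1 array left out. The count of 0 between the injured groups became 1 with the pseudocount at the median, 1 with a gene's probe sets averaged, 4 with array weights and 5 with only the 4 arrays, and ranged from 0 to 2 with 1 array left out. The other ranges with 1 array left out were 5 to 8 for untransplanted injured against uninjured muscle, 7 to 9 for it against bone marrow, and 7 in every fit for transplanted injured muscle against bone marrow. Of all probe sets, 6.08% were called for uninjured muscle against bone marrow. This share was 7.43% with the pseudocount at the median and 1.77% with only the 4 arrays. For transplanted injured against uninjured muscle it was 32.4%, and 18.5% with only the 4 arrays. Between the injured groups it was 0.252%, and 0.528% with the pseudocount at the median. There it was 0.693% of genes with probe sets averaged, 4.98% with array weights and 6.91% with only the 4 arrays. The cause of these moves was not tested, and fits without an array, or on 4 arrays, have fewer samples. Median centring moved the median of all probe sets by -0.18 for uninjured muscle against bone marrow and by 0.13 to 0.28 for the comparisons among the muscle groups, and quantile normalization by 0.13 for transplanted injured against uninjured muscle. The call of Mmp3 in that comparison was lost under both (adjusted p = 0.0703 and 0.0802). With the filter at the 60th percentile Mmp3 was not tested. Where an arm is left with 1 array, that array is assumed to vary like the other groups.

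Replicate numbers are shared by the groups, but the deviations of same-numbered arrays correlated by 0.313 between bone marrow and uninjured muscle and by -0.0317 to 0.0031 between the other pairs of groups, so the numbers were not taken as pairs. In bone marrow and uninjured muscle replicate 1 had the higher Gapdh 3'/5' ratio (24.4 against 10.7 and 46.9 against 13.6). With the replicate number as a block the counts were 7, 6, 9, 0, 8 and 7, in the order uninjured muscle against bone marrow, untransplanted and then transplanted injured against uninjured muscle, transplanted against untransplanted injured muscle, and untransplanted and then transplanted injured muscle against bone marrow. In the same order the fit with the block called 5.78%, 26.3%, 33.2%, 0.0921%, 31.5% and 32.9% of all probe sets. The block kept all 36 calls and added Mmp2 for uninjured muscle against bone marrow. Dim signal limits the representative probe sets of Mmp3, Mmp19 and Timp3, which reached 38.4 in 2 of the 4 groups.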
